A study of Mus musculus with 6 samples.

Results

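The regional patterning transcription factors are homeobox, Pax and related DNA-binding proteins that give neural cells their position along the brain and spinal cord. A list of 54 such genes was taken as given, out of 53801 genes counted in each library, and all 54 were found. The samples are mouse neural progenitor cells (NPCs), differentiated from embryonic stem cells of a BL/6J x CAST-EiJ background and carrying an auxin degron on SPEN, and their RNA was sequenced. SPEN is a corepressor that acts on the X chromosome being silenced and on Notch target genes, and auxin triggers breakdown of degron-tagged proteins. There were 2 subclones, clone 31 and clone 30, each with an untreated, a 24 h and a 48 h library (500 uM auxin), so that there were 6 libraries and n = 2 per treatment. All cells, untreated ones included, carry the degron and grew on gelatin in N2B27 with EGF and FGF. No untagged NPCs treated with auxin were analysed here, so auxin itself and SPEN loss cannot be told apart. Nothing in the labels says that libraries of 1 clone came from separate cultures, so p-values measure the spread between these libraries.

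In the embryo these factors are laid out in overlapping domains. Otx, Emx, Six3 and Dlx genes mark the forebrain, En, Gbx and Pax genes meet around the midbrain-hindbrain boundary, and Hox genes of the 4 clusters are switched on in order along the hindbrain and spinal cord. Across the dorsoventral axis, Pax3, Pax7, Msx and Zic genes mark dorsal progenitors, and Dbx, Irx and Nkx6 genes mark intermediate and ventral ones. Many of the factors repress those of the neighbouring domain, and Hox proteins bind DNA together with Meis and Pbx partners.

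Total counts ran from 24603816 to 43008978 per library. Of 10 neural progenitor markers 9 were on, with summed levels of 4635 to 6887 TPM in clone 31 and 6286 to 7830 TPM in clone 30, while Sox1 had at most 2 counts per library. Of 8 pluripotency markers, Pou5f1, Zfp42, Dppa3 and Dppa5a had 0 counts in all 6 libraries. Nanog and Esrrb were on (means of 3.16 and 2.71 TPM), and Klf2 and Tfcp2l1 were low (0.959 and 0.251 TPM). Spen RNA was 32.1, 59.4 and 68.0 TPM in clone 31 and 25.3, 49.1 and 57.9 TPM in clone 30 (untreated, 24 h and 48 h), and Xist RNA was 188, 251 and 376 TPM and 152, 229 and 304 TPM in the same order. The degron acts on the protein, so Spen RNA does not check its depletion.

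Of the 54 members, 24 were on, 10 were low and 20 were at the floor. A member was called on at a mean of at least 1 TPM over the 6 libraries (TPM, the counts per base of exon as a share of their sum over all genes, scaled equally in every library). A member at the floor had at most 3 counts in every library, and low covers the rest. By the same rule 27.7% of all 53801 genes were on. The on members were spread unevenly: 11 of 16 Hox and Meis genes and 5 of 8 intermediate and ventral factors were on, against 4 of 13 forebrain, 3 of 8 midbrain-hindbrain and 1 of 9 dorsal and neural crest factors. Mean levels ran from 1.74 TPM for Gsx1 to 169.7 TPM for Hoxa5. Of the 20 members at the floor, 7 had no count in any library (Dlx5, Gsx2, Nkx2-1, Pax3, Zic1, Foxd3 and Hoxc5). For members at the floor, 3 counts correspond to between 0.0265 and 0.279 TPM, depending on the gene's length and the library, and this limit covers counting error only.

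**Figure D1:**
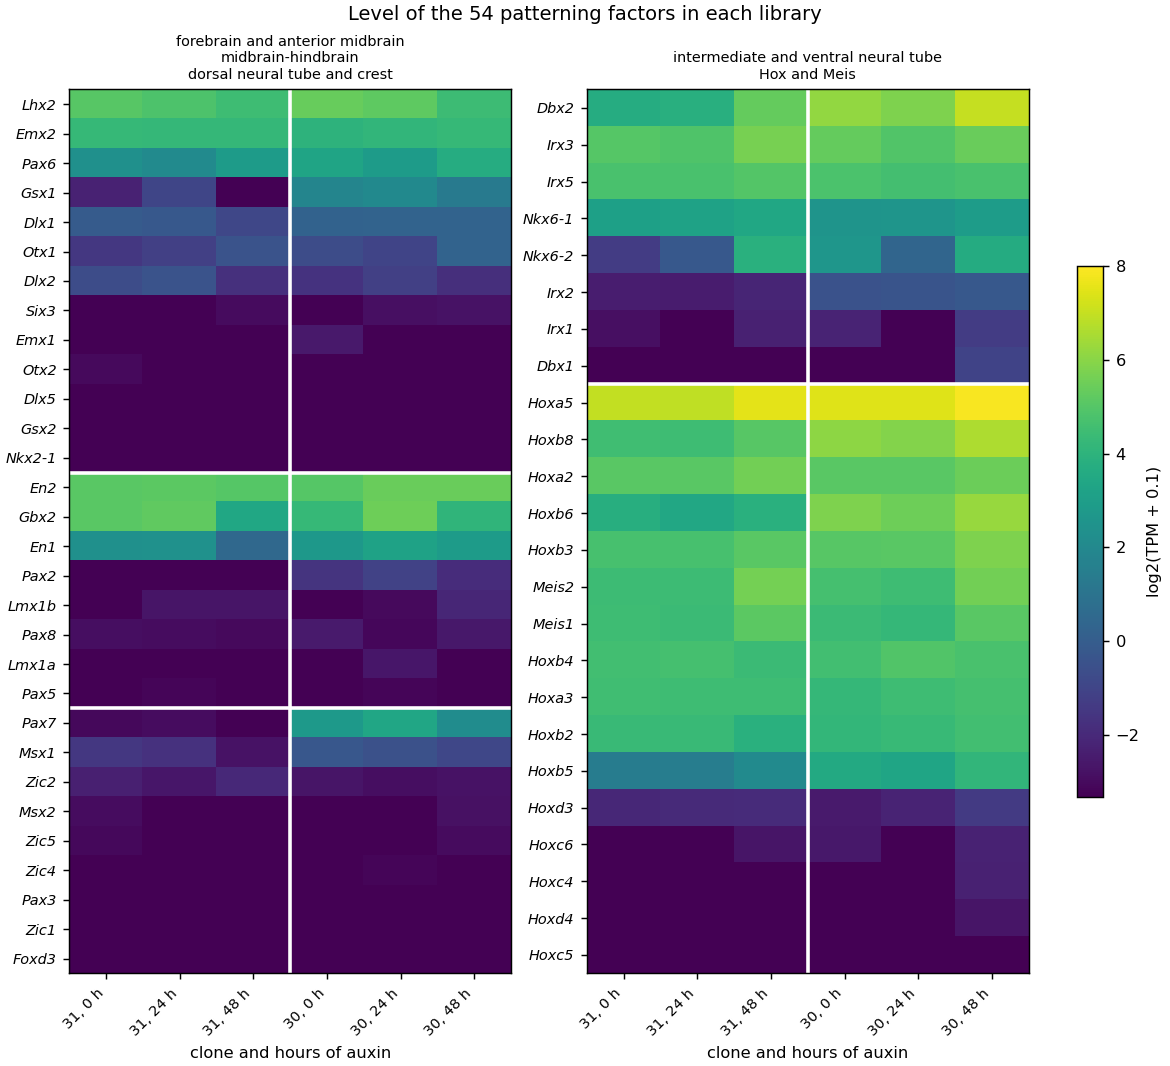
Level of each of the 54 members in each of the 6 libraries, as log2(TPM + 0.1), with rows grouped by domain and columns by clone (31, then 30) and hours of auxin. Hox and Meis genes and intermediate factors fill most of the bright rows, and Pax7 (0.0167, 0.0311 and 0 TPM in clone 31, 6.99, 10.4 and 4.40 TPM in clone 30) stands out by clone.

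Promoter windows of 300 bases (250 before to 50 after the start) were found in RefSeq (GRCm38.p6) for 41 of the 54 members. They held a median of 19 CG dinucleotides (4 to 40), against 7 over all 32851 RefSeq windows, and the medians were 18.5 for on, 24.5 for low and 14 for floor members. The windows of 5 members are shown because the results below turn on them: Pax7 and Gsx1 were on through clone 30 alone, and Hoxb8, Meis2 and Nkx6-2 were higher at 48 h than at 24 h of auxin. Capitals mark CG dinucleotides, and each window is given on the gene's own strand.
Pax7 (chr4:139832919-139833218, minus strand): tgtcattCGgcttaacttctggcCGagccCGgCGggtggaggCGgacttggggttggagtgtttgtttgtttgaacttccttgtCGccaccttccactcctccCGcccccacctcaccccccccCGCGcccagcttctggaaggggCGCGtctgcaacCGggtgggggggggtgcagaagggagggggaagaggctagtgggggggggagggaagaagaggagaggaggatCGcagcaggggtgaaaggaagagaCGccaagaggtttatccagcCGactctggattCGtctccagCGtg
Gsx1 (chr5:147188446-147188745, plus strand): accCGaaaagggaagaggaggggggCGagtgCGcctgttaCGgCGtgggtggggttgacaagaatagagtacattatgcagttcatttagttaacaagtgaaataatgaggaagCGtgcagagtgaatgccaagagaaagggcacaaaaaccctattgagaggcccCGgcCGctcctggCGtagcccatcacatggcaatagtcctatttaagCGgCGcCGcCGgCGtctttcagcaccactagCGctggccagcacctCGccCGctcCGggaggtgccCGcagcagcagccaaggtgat
Hoxb8 (chr11:96281655-96281954, plus strand): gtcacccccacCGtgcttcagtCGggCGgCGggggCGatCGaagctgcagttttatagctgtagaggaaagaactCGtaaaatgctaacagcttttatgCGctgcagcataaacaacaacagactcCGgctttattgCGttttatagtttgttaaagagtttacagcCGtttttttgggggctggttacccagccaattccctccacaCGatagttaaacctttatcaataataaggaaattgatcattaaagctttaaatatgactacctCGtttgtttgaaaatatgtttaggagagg
Nkx6-2 (chr7:139582748-139583047, minus strand): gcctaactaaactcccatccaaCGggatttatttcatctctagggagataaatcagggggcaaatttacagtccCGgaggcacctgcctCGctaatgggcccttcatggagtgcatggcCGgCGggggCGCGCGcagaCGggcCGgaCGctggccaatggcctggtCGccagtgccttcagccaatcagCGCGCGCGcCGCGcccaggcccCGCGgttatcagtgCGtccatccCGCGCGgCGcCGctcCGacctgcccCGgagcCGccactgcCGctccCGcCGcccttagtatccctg
Meis2 (chr2:116064570-116064869, minus strand): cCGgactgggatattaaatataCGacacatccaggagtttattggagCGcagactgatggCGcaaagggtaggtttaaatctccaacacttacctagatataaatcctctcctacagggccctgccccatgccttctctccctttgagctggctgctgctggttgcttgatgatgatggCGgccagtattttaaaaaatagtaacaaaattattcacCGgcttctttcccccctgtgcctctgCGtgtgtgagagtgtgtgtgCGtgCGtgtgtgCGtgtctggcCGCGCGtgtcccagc
The Nkx6-2 window held 32 CG dinucleotides and those of Gsx1, Pax7, Hoxb8 and Meis2 held 19, 17, 13 and 13. The motif TGATNNAT, which PBX and HOX proteins can bind together, was searched on both strands. It lay in the windows of 5 of 41 members (12.2%), against 8.85% of all windows. These were Hoxb8, Nkx6-2 and Hoxa2, which were on, and Zic1 and Foxd3, which were at the floor. TGGGAA, the core bound by the Notch effector RBPJ, lay in 9 of 41 (22.0%), against 25.6% of all windows.

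Among forebrain and anterior midbrain factors, Lhx2, Emx2, Pax6 and Gsx1 were on. Lhx2, a LIM-homeodomain factor of the eye field and cortex (chromosome 2, 38339281 to 38369733, mm10), stood at 32.9, 28.5 and 22.3 TPM in clone 31 and 40.7, 36.5 and 21.4 TPM in clone 30 at 0, 24 and 48 h of auxin. Both 48 h libraries were below the other 4. Emx2, a homeobox factor of the dorsal telencephalon (chromosome 19, 59458372 to 59465357), stayed between 15.7 and 19.3 TPM in all 6 libraries, with 19.0, 18.6 and 18.7 TPM in clone 31 and 15.7, 17.5 and 19.3 TPM in clone 30. It was the steadiest of these 4. Pax6, which acts in eye, cortex and ventral neural tube progenitors (chromosome 2, 105668900 to 105697364), had 5.09, 4.22 and 7.26 TPM in clone 31 and 9.76, 7.41 and 12.8 TPM in clone 30, so every clone 31 library was below every clone 30 library. Gsx1, a factor of ventral telencephalic and dorsal spinal progenitors (chromosome 5, 147188696 to 147190947), was on only through clone 30: it had 0.110, 0.411 and 0 TPM in clone 31 (2, 8 and 0 counts) and 3.41, 4.04 and 2.46 TPM in clone 30. Otx1, a head gap gene of forebrain and midbrain, was low at 0.252, 0.336 and 0.643 TPM in clone 31 and 0.515, 0.404 and 1.12 TPM in clone 30, with the highest value of each clone at 48 h. Dlx1 and Dlx2, which specify inhibitory neurons of the ventral forebrain, were low (means of 0.894 and 0.350 TPM). Otx2, Emx1, Six3, Dlx5, Gsx2 and Nkx2-1 were at the floor, with at most 2 counts in any library.

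Among midbrain-hindbrain factors, En2, Gbx2 and En1 were on. En2, an engrailed factor of the midbrain and cerebellum (chromosome 5, 28165694 to 28172166), had 34.2, 35.1 and 32.7 TPM in clone 31 and 32.1, 42.6 and 42.1 TPM in clone 30, with overlapping clones and times. Gbx2, which marks the anterior hindbrain and opposes Otx2 at the boundary (chromosome 1, 89927956 to 89931179), had 34.2, 37.0 and 10.8 TPM in clone 31 and 19.1, 45.2 and 17.0 TPM in clone 30. Its 24 h level was the highest of the 3 times in both clones and its 48 h level the lowest. En1, the other engrailed gene (chromosome 1, 120602418 to 120607992), had 5.09, 5.14 and 1.33 TPM in clone 31 and 6.56, 9.22 and 7.35 TPM in clone 30, and the 48 h library of clone 31 was the lowest of the 6. Pax2, a Pax gene of the boundary, was low: it had 0 counts in all 3 clone 31 libraries, against 8, 20 and 7 counts in clone 30. Lmx1b was also low (mean 0.0448 TPM), and its relative Lmx1a was at the floor together with Pax5 and Pax8. The boundary genes therefore split, with both engrailed genes and Gbx2 on, and Otx2 and the Pax2, Pax5 and Pax8 group low or at the floor.

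Dorsal and crest factors were the least represented. Pax7, a paired-box factor of dorsal progenitors and neural crest (chromosome 4, 139737062 to 139833528), was the 1 member on, and only through clone 30: it had 1, 2 and 0 counts in clone 31 and 264, 610 and 195 counts in clone 30. Msx1, a target of dorsal BMP signals, was low at 0.252, 0.206 and 0.0450 TPM in clone 31 and 0.751, 0.611 and 0.426 TPM in clone 30, with no overlap between the clones. Pax3, Msx2, Zic1, Zic2, Zic4, Zic5 and the crest factor Foxd3 were at the floor.

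All 8 intermediate and ventral factors gave counts above the floor in at least 1 library. Dbx2, a homeobox factor of progenitors near the middle of the dorsoventral axis (chromosome 15, 95623563 to 95655960), had 12.7, 13.8 and 39.8 TPM in clone 31 and 70.9, 55.2 and 127 TPM in clone 30, and the highest value of each clone was at 48 h. The clones did not overlap. Irx3, an Iroquois factor that opposes ventral factors such as Olig2 (chromosome 8, 91798525 to 91802067), had 32.4, 29.6 and 50.6 TPM in clone 31 and 40.0, 30.7 and 42.1 TPM in clone 30. Irx5, its neighbour in the same gene cluster (chromosome 8, 92357625 to 92376286), stayed between 24.8 and 30.9 TPM, with 27.1, 26.8 and 30.9 TPM in clone 31 and 28.0, 24.8 and 26.9 TPM in clone 30. Both Iroquois genes were present in every library, with the clones overlapping. Nkx6-1, a factor of ventral progenitors and motor neurons (chromosome 5, 101658139 to 101664996), had 8.43, 9.24 and 10.8 TPM in clone 31 and 5.63, 5.84 and 7.66 TPM in clone 30, each clone 31 library above all clone 30 libraries. Nkx6-2, a close relative that is also expressed in oligodendrocytes (chromosome 7, 139579376 to 139582797), had 0.307, 0.765 and 14.6 TPM in clone 31 and 6.10, 1.20 and 12.5 TPM in clone 30. Its untreated libraries lay far apart, and both 48 h libraries were above the other 4. Irx2 was low, with 0.0892, 0.0833 and 0.127 TPM in clone 31 and 0.614, 0.668 and 0.765 TPM in clone 30. Irx1 and Dbx1 were low, and the 6 counts of Dbx1 all came from the 48 h library of clone 30.

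The Hox members held the highest level of the list. Hoxa5, a cervical and brachial identity gene (chromosome 6, 52201754 to 52204587), had 126, 119.6 and 186 TPM in clone 31 and 172, 177 and 238 TPM in clone 30. Its mean of 169.7 TPM was followed among the Hox genes by 50.5 TPM for Hoxb8, a thoracic-level gene (chromosome 11, 96281905 to 96285315), which had 23.3, 22.1 and 33.4 TPM in clone 31 and 67.3, 60.1 and 96.7 TPM in clone 30. Both genes were highest at 48 h in each clone, and the clones did not overlap for Hoxb8. Hoxb6 (chromosome 11, 96292476 to 96301569) had 13.5, 11.0 and 14.6 TPM in clone 31 and 56.5, 45.2 and 76.0 TPM in clone 30, and Hoxb5 (chromosome 11, 96303336 to 96306121) had 2.63, 2.65 and 4.15 TPM in clone 31 and 11.5, 10.0 and 17.3 TPM in clone 30. Neither gene's clones overlapped. Hoxb3 (chromosome 11, 96323326 to 96347930), a hindbrain-level gene, had 26.1, 25.8 and 34.4 TPM in clone 31 and 33.0, 34.5 and 56.5 TPM in clone 30, with the highest value of each clone at 48 h. The other 4 genes of the anterior HoxA and HoxB ends, all hindbrain-level genes, were not called between the clones. Hoxa2 had 34.6, 33.8 and 48.7 TPM in clone 31 and 34.0, 34.1 and 43.7 TPM in clone 30. Hoxa3 had 22.8, 22.2 and 22.5 TPM in clone 31 and 18.5, 21.9 and 24.8 TPM in clone 30. Hoxb2 had 20.1, 20.04 and 14.6 TPM in clone 31 and 18.2, 19.8 and 23.9 TPM in clone 30, and its 48 h values were the lowest and the highest of the 6. Hoxb4 had 23.6, 25.0 and 20.6 TPM in clone 31 and 23.8, 30.04 and 27.1 TPM in clone 30, and the clones overlapped. Exons of Hoxa2, Meis1 and Hoxa3 shared 15.04%, 9.77% and 8.015% of their bases with another annotated gene on the same strand, and read pairs there may not have been counted.

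Hoxc4, Hoxc5 and Hoxc6 were at the floor, and Hoxd3 was low. Hoxd4 had 1 count over the 6 libraries, but all of its exon bases (100%) are shared with other annotated genes on its strand, among them Hoxd3, whose own exons are shared by 62.4%. The counts of Hoxd4 and Hoxd3 are therefore uncertain as measures of these genes.

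Meis1 and Meis2 encode the homeodomain partners of Hox proteins. Meis1 (chromosome 11, 18879817 to 19018985) had 22.0, 20.6 and 35.7 TPM in clone 31 and 21.1, 18.3 and 34.7 TPM in clone 30. Meis2 (chromosome 2, 115863064 to 116065839) had 21.4, 21.5 and 49.1 TPM in clone 31 and 25.3, 22.5 and 48.5 TPM in clone 30. The 48 h libraries of both genes were above the other 4, and the clones were close at each time.

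Across the whole family, 16 of 39 Hox genes were on, 2 were low and 21 were at the floor. They lay mainly in 2 clusters: 7 of 11 HoxA genes and 8 of 10 HoxB genes were on, the HoxB genes as a continuous run (Hoxb2 to Hoxb9, of which Hoxb9 through clone 30 alone). No HoxC gene of 9 was on, and 1 of 9 HoxD genes was on, Hoxd8, again through clone 30 alone. Hoxb9 had 0, 0 and 0.0542 TPM in clone 31 and 7.11, 5.34 and 4.98 TPM in clone 30, and Hoxd8 had 0, 0.166 and 0.0508 TPM in clone 31 and 3.50, 4.21 and 3.51 TPM in clone 30. Summed levels were 270.2 TPM in clone 31 and 371 TPM in clone 30 for HoxA, and 132 TPM in clone 31 and 274 TPM in clone 30 for HoxB.

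**Figure D2:**
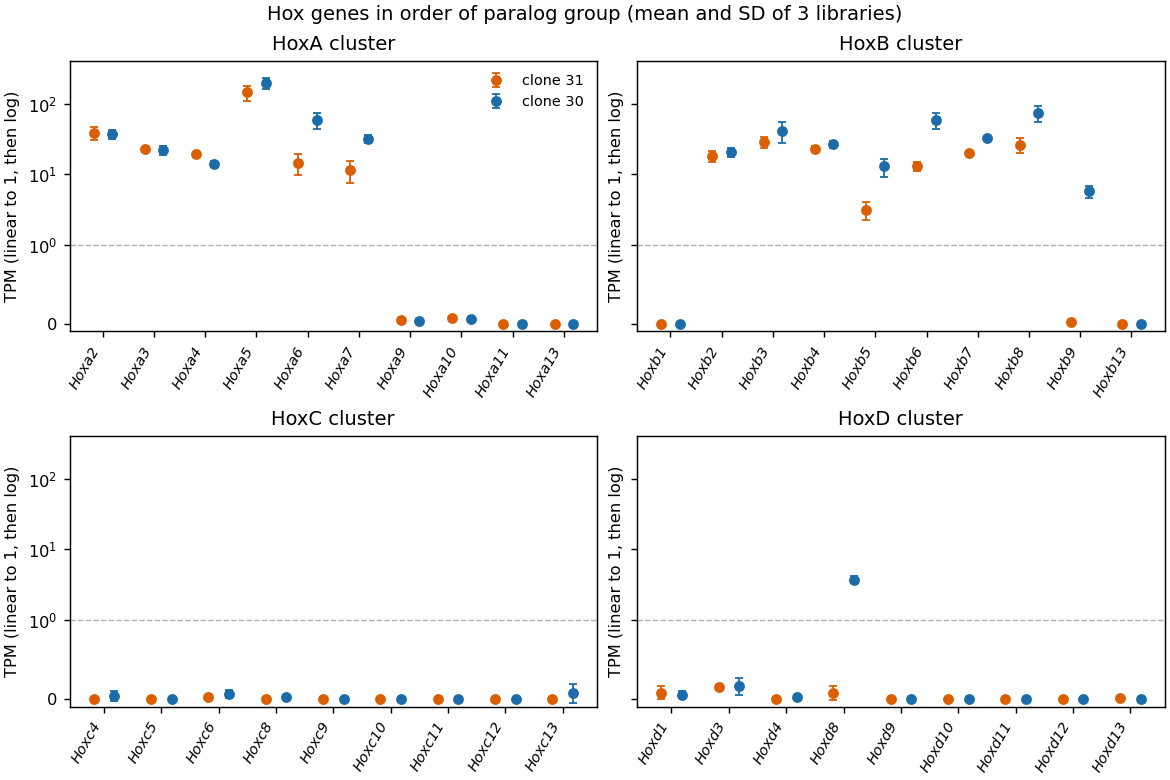
Mean level of the Hox genes shown in clone 31 (orange) and clone 30 (blue) with the SD of 3 libraries, by cluster and in order of paralog group, on an axis that is linear to 1 TPM and logarithmic above; the dashed line is 1 TPM. Most HoxA and HoxB genes lie above the line, the HoxC cluster is near 0, and clone 31 lies below clone 30 at Hoxb5 (3.14 TPM in clone 31, 12.9 TPM in clone 30), less so at Hoxb7 (19.8 TPM in clone 31, 32.5 TPM in clone 30), and is near 0 at Hoxb9 (0.0181 TPM in clone 31, 5.81 TPM in clone 30).

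The comparison of clone 31 with clone 30 asks how far the 2 subclones differ in these factors. Of the 28 members that passed the count filter, 24 reached its level (10 counts at the median library size) in libraries of both clones, and 8 of these were called, 7 lower and 1 higher in clone 31. Over all 15492 genes tested 16.2% were called (7.58% higher and 8.58% lower in clone 31). The median log2 difference was -0.16 over those 24 members and 0.01 over all genes tested. The other 4 (Pax7, Gsx1, Irx2 and Msx1) passed the filter through clone 30 alone and so had to differ; their values are a description, with no test. The test was edgeR's quasi-likelihood test with treatment and clone as terms, n = 3 libraries per clone, Benjamini-Hochberg adjusted over all genes at 0.05. In bulk RNA, fewer cells of a type and less RNA per cell cannot be told apart.

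Pax7 had 3 counts over 3 libraries in clone 31 and 1069 in clone 30, a level 421-fold higher in clone 30 (95% counting interval 144 to 2044). Gsx1 had 10 counts in clone 31 and 144 in clone 30, 17.0-fold higher in clone 30 (8.98 to 36.2). Irx2 had 9 counts in clone 31 and 54 in clone 30, 7.09-fold higher in clone 30 (3.47 to 16.3). The dorsal marker Msx1 had 8, 7 and 1 counts in clone 31 and 15, 19 and 10 in clone 30. Pax2 was not in the test, having 0 counts in clone 31 and 35 in clone 30. The lower end of its 95% counting interval was 10.6-fold higher in clone 30. These 5 genes had at most 8 counts in any clone 31 library.

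Among members on in both clones, Hoxb6, Hoxb5 and Hoxb8 were lower in clone 31, with log2 differences of -2.10 ± 0.11, -1.98 ± 0.14 and -1.44 ± 0.08 (SE; edgeR adjusted p = 0.000834, 0.00176 and 0.00123). Hoxb3 and Hoxa5 were lower to a smaller extent, at -0.43 ± 0.09 and -0.40 ± 0.09 (adjusted p = 0.0260 and 0.0333). These log2 differences were larger at Hoxb5, Hoxb6 and Hoxb8 than at Hoxb3 and at Hoxb7 (-0.66, adjusted p = 0.0270), which is no member, and Hoxb2 (-0.12, adjusted p = 0.660) and Hoxb4 (-0.17, adjusted p = 0.322) did not pass. Dbx2 and Pax6 were also lower in clone 31, Dbx2 with a difference of -1.98 ± 0.19 (adjusted p = 0.00352) and Pax6 with -0.80 ± 0.10 (adjusted p = 0.00682). Nkx6-1 was the 1 member called higher in clone 31, by 0.64 ± 0.12 (adjusted p = 0.0246). Meis1 and Meis2 gave 0.15 ± 0.08 and -0.04 ± 0.10 (adjusted p = 0.246 and 0.833). En1, whose clones did not overlap, gave -1.04 ± 0.35 and did not pass (adjusted p = 0.107). Over the 24 on members the TPM of the clones did not overlap for 9. Among these 9 are Pax7 and Gsx1, which were on through 1 clone alone and so could hardly overlap. Of the 14899 genes on, 22.1% did not overlap, and the count of members was not tested against that share.

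The calls of Hoxb5, Hoxb6, Hoxb8, Dbx2 and Pax6 were made with any 1 of the 6 libraries left out. Those of Hoxa5, Hoxb3 and Nkx6-1 were lost without any 1 of the untreated or 24 h libraries (adjusted p up to 0.282, 0.185 and 0.249). The count of members, which with all 6 libraries is 12 when the 4 above are counted too, was 7 with either 24 h library left out, 8 with either untreated library left out and 15 with either 48 h library left out. Over all genes, leaving out a 24 h library gave 696 (clone 31) and 701 (clone 30) calls, and leaving out a 48 h library gave 4978 (clone 31) and 4927 (clone 30).

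**Figure D3:**
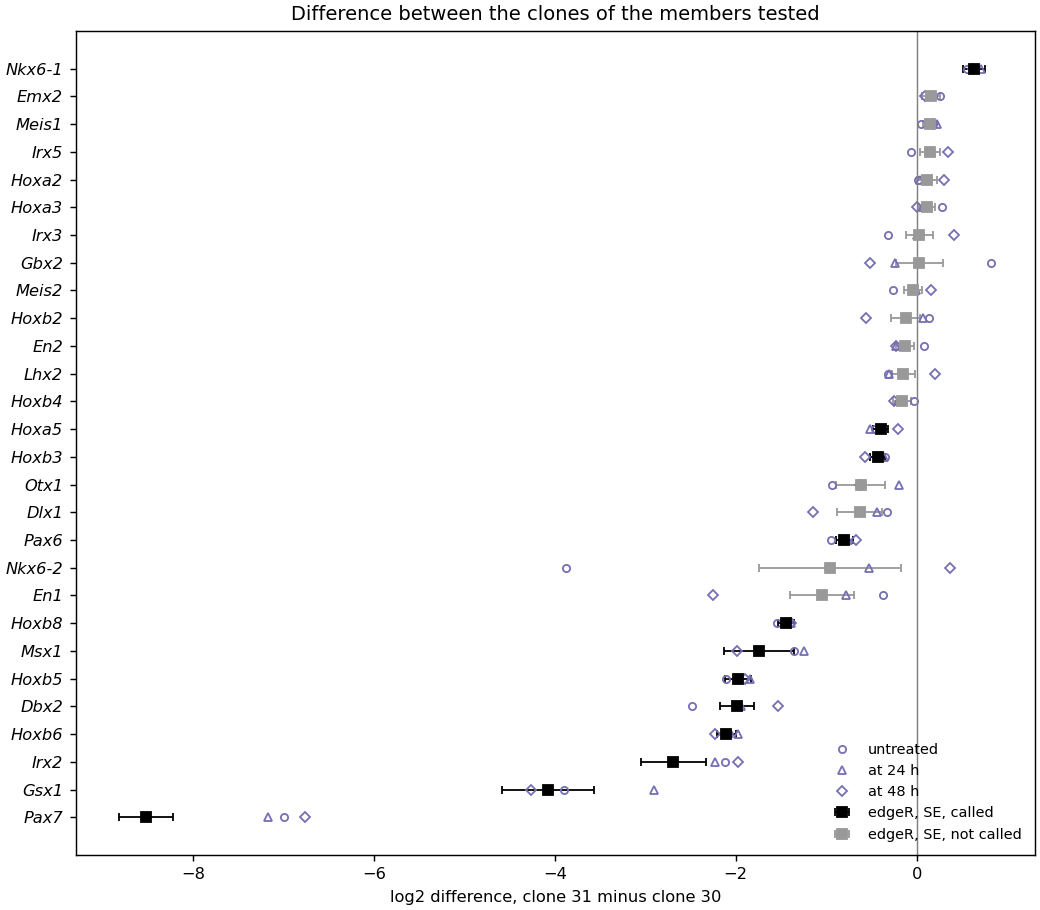
Log2 difference, clone 31 minus clone 30, of the 28 members tested (squares with SE, black where called) and the difference at each time from log2 CPM with a prior count of 2 (open symbols). Of the 12 black squares, 11 lie left of 0 and Nkx6-1 lies right of it; Pax7, Gsx1, Irx2 and Msx1 passed the count filter through clone 30 alone, and the fitted value of Pax7 (-8.52) rests on 3 counts in clone 31.

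Of the 25 other Hox genes 7 were tested, and 5 were lower and 2 higher in clone 31, but Hoxb9 and Hoxd8 passed the filter through clone 30 alone. Hoxb9 had 1 count in clone 31 and 353 in clone 30, a ratio of 417 towards clone 30 (74.3 to 16511), and Hoxd8 had 6 in clone 31 and 251 in clone 30, a ratio of 49.4 (22.4 to 136). Hoxa6 and Hoxa7 were lower in clone 31, with log2 differences of -1.96 and -1.45 (edgeR adjusted p = 0.00180 and 0.00811). Among the other lists, 5 of 18 Polycomb and opposing genes were higher and 0 lower in clone 31, the 4 with the smallest p being Ezh2 (0.43), Cbx2 (0.48), Bmi1 (0.35) and Suz12 (0.33), which encode Polycomb subunits. Of 13 retinoic acid genes tested 3 were higher and 2 lower: the receptors Rara (1.06) and Rarg (0.58) and the synthesis enzyme Aldh1a1 (1.64) were higher in clone 31, and of the 2 lower genes the degrading enzyme Cyp26b1 passed the filter through clone 30 alone (4, 2 and 5 counts in clone 31, 8, 12 and 37 in clone 30). Of 9 Hox cofactors and upstream regulators 1 was higher, Pbx3 (1.34). Of 5 other forebrain factors tested, 1 was higher, Nr2f1 (0.64). Of 6 other ventral factors, 2 were lower, both having passed the filter through clone 30 alone, among them Nkx2-9 (0, 4 and 3 counts in clone 31, 10, 35 and 9 in clone 30). The genes given with a log2 difference in this paragraph passed at an adjusted p below 0.05 in edgeR.

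Markers of other cell types also differed between the clones. Of 7 astrocyte markers 4 were lower in clone 31 (summed levels of 565 to 1312 TPM in clone 31 and 673 to 1144 TPM in clone 30), and of 6 tested markers of neural crest and mesenchyme 3 were higher (43.6 to 56.9 TPM in clone 31 and 28.0 to 44.0 TPM in clone 30). Of 7 neuron markers tested 1 was higher, Syt1, and 2 were lower, Tubb3 and Elavl3 (summed levels of 196 to 271 TPM in clone 31 and 292 to 344 TPM in clone 30). Of 5 oligodendrocyte lineage markers tested 1 was higher and 1 lower, the higher one being Cspg4 (23.4, 30.3 and 27.7 TPM in clone 31, 3.99, 4.57 and 3.72 TPM in clone 30). None of 9 neural progenitor markers, 4 pluripotency markers and 1 endoderm marker tested was called. The part of other cell types in the clone differences was not tested.

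After 24 h of auxin no member was called against untreated cells, with or without the clone as a block. In edgeR 0.0% of 16007 genes were called in either fit (240 had an unadjusted p below 0.05 on treatment alone, 988 with the block), and DESeq2 called 6 genes, or 41 with the block, with 0 members among them. The blocked median over the 30 members tested was -0.01, and it was 0.01 over all genes. Gbx2 was at 37.0 and 45.2 TPM at 24 h in clones 31 and 30, against 34.2 and 19.1 TPM untreated (log2 0.61 ± 0.31, adjusted p = 0.857). Nkx6-2 moved in opposite directions in the clones, with within-clone log2 changes of 1.07 in clone 31 and -2.28 in clone 30 (adjusted p = 0.902).

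After 48 h of auxin, Meis1, Meis2, 3 of 9 Hox members tested (Hoxa5, Hoxb3 and Hoxb8) and Dbx2 were higher than in untreated cells and Lhx2 was lower, when the clone was a block. On treatment alone edgeR called 0.0% of 16007 genes (3311 had an unadjusted p below 0.05, and DESeq2 called 1669), and so no member. With the clone as a block it called 17.4% of them (8.35% higher and 9.08% lower), and 7 of the 30 members tested, 6 higher and 1 lower. The members' share in all is near that of all genes. The count higher, 6 of 30 against 8.35% of all genes, was not tested. The members were also chosen with earlier results of these data known. The blocked median was 0.24 over the members and 0.02 over all genes, with 19 members above 0 and 11 below.

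Meis2 stood at 49.1 and 48.5 TPM at 48 h in clones 31 and 30, against 21.4 and 25.3 TPM untreated (48.8 ± 0.416 and 23.3 ± 2.77 TPM, SD, n = 2 each). Its log2 change was 1.07 ± 0.12 (SE) with the block (edgeR adjusted p = 0.0238, against 0.139 on treatment alone). Meis1 stood at 35.7 and 34.7 TPM at 48 h, against 22.0 and 21.1 TPM untreated (log2 0.71 ± 0.09, adjusted p = 0.0238 with the block and 0.139 without). Both Hox partner genes were higher by similar amounts in the 2 clones, with within-clone changes of 1.28 in clone 31 and 0.86 in clone 30 for Meis2 and 0.78 in clone 31 and 0.63 in clone 30 for Meis1. DESeq2 called both without the block as well (adjusted p = 5.85e-08 for Meis2 and 0.000631 for Meis1).

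Dbx2 stood at 39.8 and 127 TPM at 48 h, against 12.7 and 70.9 TPM untreated in clones 31 and 30. The treatments overlapped across clones, and the 48 h value was the higher one in each clone (1 library per clone and time). With the block it was higher by 1.22 ± 0.22 on the log2 scale (adjusted p = 0.0287 in edgeR, against 0.650 on treatment alone). The Hox genes Hoxb3, Hoxb8 and Hoxa5 were higher by 0.59 ± 0.11, 0.52 ± 0.10 and 0.51 ± 0.11 (adjusted p = 0.0286, 0.0311 and 0.0333 with the block, 0.260, 0.763 and 0.306 without). The 48 h and untreated libraries did not overlap for Hoxb3 and Hoxa5, and did for Hoxb8, whose clones lie apart. Lhx2 stood at 22.3 and 21.4 TPM at 48 h, against 32.9 and 40.7 TPM untreated, a log2 change of -0.74 ± 0.16 (adjusted p = 0.0349 with the block, 0.146 without). It was the 1 member called lower, and its 2 groups did not overlap.

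Several members with sizeable changes did not pass. Nkx6-2 gave a blocked log2 change of 2.54 ± 0.89 (adjusted p = 0.0998), with 5.19 in clone 31 and 0.94 in clone 30. Otx1 gave 1.22 ± 0.33 (adjusted p = 0.0546), Pax6 0.45 ± 0.12 (0.0539) and Hoxb5 0.60 ± 0.17 (0.0623). Gbx2 gave -0.95 ± 0.33 (0.0933). By domain, the blocked counts were 5 higher and 0 lower of 11 Hox and Meis genes tested, 1 and 0 of 6 intermediate and ventral factors, 0 and 1 of 7 forebrain factors, 0 and 0 of 4 midbrain-hindbrain factors and 0 and 0 of 2 dorsal factors.

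**Figure D4:**
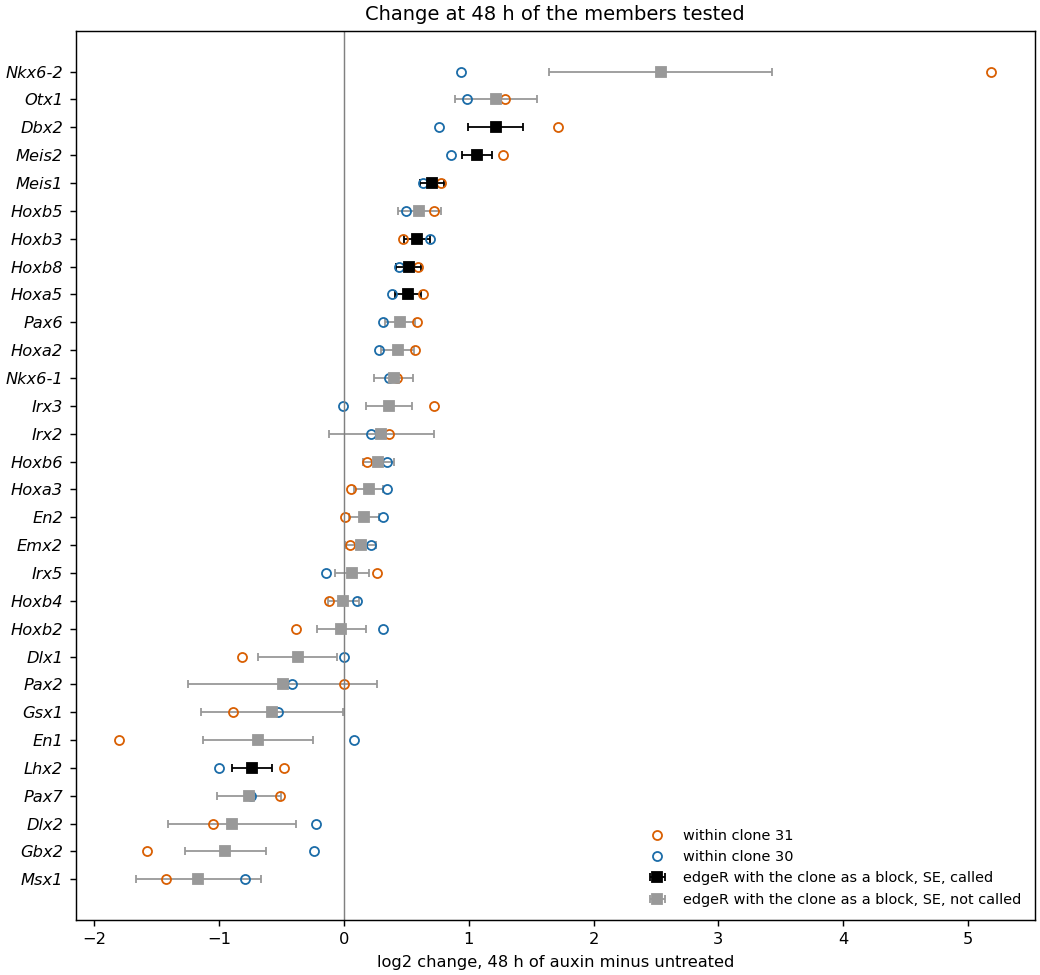
Log2 change, 48 h of auxin minus untreated, of the 30 members tested, from edgeR with the clone as a block (squares with SE, black where called) and within clone 31 (orange) and clone 30 (blue) from log2 CPM. The 7 called members have both clones on the same side of 0, from -0.74 (Lhx2) to 1.22 (Dbx2).

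These calls depended on single libraries. Under the block, leaving out an untreated library gave 0 members (clone 31, with 6 genes called in all) and 5 members (clone 30, 2013 genes). Leaving out either 24 h library gave 3 members (646 genes for clone 31, 614 for clone 30), and leaving out a 48 h library gave 8 (clone 31, 3290 genes) and 12 (clone 30, 6615 genes). Meis1, Meis2 and Dbx2 were called in 5 of these 6 fits, and in the fit lacking untreated clone 31 they had adjusted p of 0.119, 0.0880 and 0.108. Hoxa5, Hoxb3, Hoxb8 and Lhx2 were called in the 2 fits without a 48 h library alone, and in the other 4 their adjusted p reached 0.206, 0.139, 0.226 and 0.121. The sign of all 7 was kept in all 6 fits.

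Markers of several cell types moved in the same comparison. With the block, 5 of 7 astrocyte markers and 3 of 5 tested oligodendrocyte lineage markers were higher at 48 h and 0 were lower. Summed astrocyte markers were at 1312 and 1144 TPM at 48 h in clones 31 and 30, against 565 and 749 TPM untreated, and summed oligodendrocyte lineage markers at 541 and 335 TPM, against 119 and 153 TPM. Of the defining oligodendrocyte genes, Mog had 0 to 2 counts and Sox10 1 to 5 counts per library. Of 9 neural progenitor markers tested 2 were higher, Sox2 and Sox3, and 0 lower. Nkx6-2 is itself expressed in oligodendrocytes. In the other lists 1 of 4 pluripotency markers tested was higher and 1 of 7 neuron markers was lower. Of 6 neural crest and mesenchyme markers 1 was higher and 1 lower. The 1 endoderm marker tested, Cxcr4, was higher (215 and 188 TPM at 48 h in clones 31 and 30, against 27.4 and 53.0 TPM untreated). The part of glial or other cell types in the changes of the members was not tested.

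The step from 24 h to 48 h, which uses the same 48 h libraries, gave more calls. With the clone as a block edgeR called 26.1% of 16007 genes (12.3% higher and 13.9% lower), and 13 of 30 members, 11 higher and 2 lower, with Pax7, whose counts come almost wholly from clone 30, among the lower; on treatment alone it called 0.0% (3997 with an unadjusted p below 0.05; DESeq2 called 2530, with 5 members). Upper-quartile scaling moved the split over all genes to 2549 higher and 1726 lower, against 1961 and 2224 with TMM, and that of the members to 13 and 2. The blocked median was 0.21 over the members and 0.03 over all genes. All values below are with the block.

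Meis2 was higher by 1.16 ± 0.12 and Meis1 by 0.87 ± 0.09 on the log2 scale (SE; edgeR adjusted p = 0.0162 for each). Nkx6-2 stood at 14.6 and 12.5 TPM at 48 h in clones 31 and 30, against 0.765 and 1.20 TPM at 24 h, which was the largest change of the members (3.95 ± 0.95, adjusted p = 0.0337). Dbx2 was higher by 1.38 ± 0.22 (0.0170), Pax6 by 0.80 ± 0.12 (0.0164) and the low gene Otx1 by 1.22 ± 0.32 (0.0401). Among the Hox genes, 5 of the 9 tested were higher: Hoxb5 by 0.73 ± 0.17, Hoxb8 by 0.65 ± 0.10, Hoxb6 by 0.60 ± 0.13, Hoxb3 by 0.58 ± 0.11 and Hoxa5 by 0.54 ± 0.11 (adjusted p from 0.0167 to 0.0321). The remaining 4 did not pass, with Hoxa2 at 0.45 ± 0.13 (0.0518) and Hoxb4 at -0.20 ± 0.12 (0.258).

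Gbx2, a called member, was lower at 48 h. It stood at 10.8 and 17.0 TPM at 48 h, against 37.0 and 45.2 TPM at 24 h in clones 31 and 30 (log2 -1.56 ± 0.32, edgeR adjusted p = 0.0236). Pax7 had 0 counts at 48 h and 2 at 24 h in clone 31, so its blocked value (-1.30 ± 0.25) rests on 1 library per time, 4.40 TPM at 48 h against 10.4 TPM at 24 h in clone 30, and is given as a description. Lhx2, lower against untreated cells, gave -0.55 ± 0.16 and did not pass here (0.0515).

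**Figure D5:**
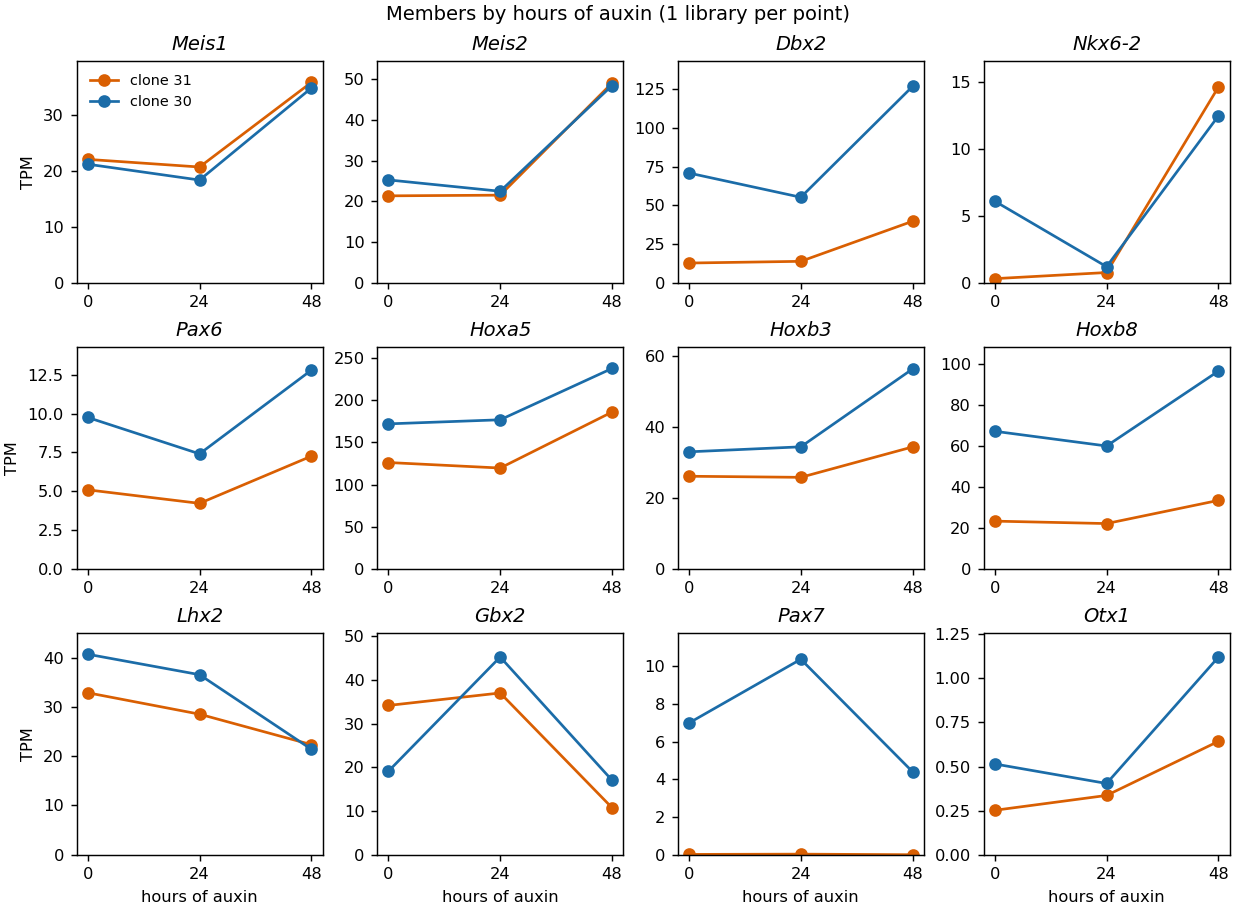
TPM of 12 members by hours of auxin, 1 library per point, clone 31 in orange and clone 30 in blue, each panel from 0. Meis1, Meis2, Dbx2, Nkx6-2, Pax6, Hoxa5, Hoxb3, Hoxb8 and Otx1 are highest at 48 h in both clones, Lhx2 and Gbx2 are lowest there, and Pax7 is near 0 in clone 31.

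With either 24 h library left out 0 members were called at this step, and over all genes 0 were called when that of clone 30 was left out and 3 when that of clone 31 was. The member count was 15 with either untreated library left out, and leaving out a 48 h library gave 12 (clone 31) and 15 (clone 30). Of the 13 members, Gbx2 and Nkx6-2 were also lost when 48 h clone 31 was left out, and Otx1 and Pax7 when 48 h clone 30 was; all 13 kept their sign. At this step 5 of 7 astrocyte and 4 of 5 tested oligodendrocyte lineage markers were higher, with summed astrocyte levels of 1312 and 1144 TPM at 48 h in clones 31 and 30, against 642 and 673 TPM at 24 h. Of 9 neural progenitor markers tested 4 were higher and 1 lower, and of 4 pluripotency markers 1 was higher and 1 lower. Of 7 neuron markers 1 was higher and 0 lower, and of 6 neural crest and mesenchyme markers 2 were higher and 2 lower. The 1 endoderm marker tested was higher. The part of these cell types in these changes was not tested.

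Genes that act with the members or on them were counted in the same fits. At 48 h against untreated, with the block, 2 of 9 Hox cofactors and upstream regulators were higher and 0 lower. Of 13 retinoic acid genes 2 were higher, among them the retinal reductase Dhrs3 (2.17 ± 0.29), and 1 was lower, the synthesis enzyme Aldh1a3 (-1.77 ± 0.28; edgeR adjusted p = 0.0238 and 0.0249). Of 18 Polycomb and opposing genes 4 were higher and 3 lower, with Jarid2 (1.001 ± 0.13) and Ezh1 (0.87 ± 0.16) higher and Cbx6 (-0.60 ± 0.08) and Suz12 (-0.50 ± 0.08) lower, all of them Polycomb genes (adjusted p = 0.0238, 0.0285, 0.0239 and 0.0259).

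Of 6 other forebrain factors tested, Nr2f1 and Nr2f2, nuclear receptors of cortical patterning, were higher by 0.86 ± 0.10 and 0.59 ± 0.13 (edgeR adjusted p = 0.0238 and 0.0362). Of 3 other dorsal and boundary genes, the ligand gene Wnt8b was higher by 2.49 ± 0.41 (0.0250). None of 7 other Hox genes tested and none of 6 other ventral factors was called, and both Olig1 and Olig2, factors of ventral progenitors and the oligodendrocyte lineage, were high, with means of 4197 and 1005 TPM. Between 24 h and 48 h the blocked counts were 1 higher of 7 other Hox genes (Hoxa6, 0.83 ± 0.17, adjusted p = 0.0249), 4 higher of 9 cofactors, 2 of 6 forebrain, 0 of 6 ventral and 2 of 3 dorsal and boundary genes, with 0 lower in these lists, and 4 higher and 1 lower of 13 retinoic acid genes and 4 and 4 of 18 Polycomb and opposing genes.

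Whether the 48 h change differed between the clones was tested as clone 31 minus clone 30, with untreated and 24 h cells taken as 1 level. No member and 0.0% of 16007 genes were called in edgeR (2139 had an unadjusted p below 0.05; DESeq2 called 231). The smallest member p was that of En1, whose change differed by -1.71 ± 0.42 on the log2 scale (adjusted p = 0.261), with 1.33 TPM at 48 h in clone 31 and 7.35 TPM in clone 30. Hoxb2 gave -0.66 ± 0.19 (0.278), Dbx2 0.69 ± 0.25 (0.334) and Nkx6-2 3.01 ± 1.32 (0.398). Without the 24 h library of clone 30, 5 members passed, 3 with a higher and 2 with a lower change in clone 31, and 1378 genes in all.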

How the data were processed

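Counts per gene were deposited, 1 file per library; per the file headers, the authors counted reversely stranded read pairs over exons by gene with featureCounts 1.6.1 (strand setting 2) on mm10 with Ensembl GRCm38 release 92, from alignments marked as merged and with duplicates removed. DESeq2 and R 3.4.2 are named too, per the submitters' processing notes. The kit named in the labels does not mark strand, yet 202 genes lying at least 90% inside an exon of an opposite gene with at least 6000 counts had a median of 0.00143 of its counts per base (4 at or above 0.5), so strand was resolved in the counts. Reads of both parental alleles are summed. Of 53801 gene IDs, 53620 matched a symbol in the gene name table.

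TPM was computed from the counts and the deposited exon lengths. Tests used edgeR 4.0.16 (TMM, filterByExpr, robust quasi-likelihood, 2-sided, Benjamini-Hochberg over all genes tested) in R 4.3.3, with Python 3.11.15 for the rest, and were tested on simulated data. Each comparison by treatment was fitted on the treatment alone and with the clone as a block, since the titles give libraries of 1 subclone the same number; deviations from the group means correlated within clones by 0.803, 0.580 and 0.707 over the 3 pairs of treatments. The treatment fit leaves 3 residual degrees of freedom and the blocked fit 2. Genes tested numbered 16007 by treatment (30 members, 24 left out for low counts) and 15492 by clone (28 members). Alternatives were DESeq2 1.42.0, other scalings, other filters and each library left out. The members and gene lists were chosen with earlier results of these data known. Values are given for members that were on or called, and for at most 4 called genes of each other list by smallest p; some of these are not reported here. Count ratios carry 95% intervals for counting error only.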

Additional observations from a re-analysis of the deposited data

How the results depend on the processing

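Auxin calls depended on the clone block, which lowered edgeR's common coefficient of variation to 0.121, against 0.271 without it; the cause of the other shifts was not tested. Without it, edgeR called 0 genes in each treatment comparison, except with no count filter (216 at 48 h against untreated and 833 at 48 h against 24 h, 1 and 3 of them members). DESeq2 called 6 genes at 24 h, 1669 at 48 h against untreated (3 members) and 2530 at 48 h against 24 h (5 members), and with the replicate block 41, 3357 (9 members) and 4271 (14). The replicate block in edgeR gave 2790 (7 members) and 4185 (13), 2811 (7) and 4203 (14) with DESeq2 size factors, and 2756 (8) and 4275 (15) with upper-quartile scaling. With 1 library left out under the block, genes called ranged from 0 to 263 at 24 h (1, 258 and 263 in the 3 fits with calls). At 48 h against untreated they ranged from 6 to 6615 (the others 614, 646, 2013 and 3290; 0 to 12 members), and at 48 h against 24 h from 0 to 7449 (the others 3, 4134, 4223 and 4279; 0 to 15 members). Between the clones they ranged from 696 to 4978 (7 to 15 members). The difference of the 48 h change between clones gave 531 genes with no filter (1 member), 231 in DESeq2, and 0 to 1378 (0 to 5 members) with 1 library left out; it could not be fitted without either 48 h library. Of 32 named member changes, 5 reversed, each without the block and with 1 library left out, which leaves the clones unbalanced: at 48 h against 24 h Hoxb5 (-0.50 to 1.95), Hoxb6 (-0.84 to 1.97, with -0.01), Hoxb8 (-0.19 to 1.499) and Pax7 (-11.05 to 5.94), and at 48 h against untreated Hoxb8 (-0.36 to 1.45, with -0.09). Members on numbered 26 at 0.5 TPM, 23 at 2 TPM and 21 when 1 TPM was asked of every library, and 24 in all 6 sets with a library left out. With 1 library per clone and time, a library and its treatment within a clone cannot be told apart, and members under about 3 counts per library are not detectable at this depth.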

Other observations

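Noncoding genes beside the members were looked at after their values were seen: those named after a member with the ending os or as, and the Hox cluster RNAs Hotair, Hotairm1, Hottip, Hoxaas2 and Hoxaas3. Of these 14 genes, 6 were on, 3 low and 5 at the floor, and Hotair, Hottip, Pax6os1 and Six3os1 had 0 counts in all 6 libraries. Hotairm1 had 65.5, 53.7 and 96.0 TPM in clone 31 and 52.8, 43.4 and 71.0 TPM in clone 30 (untreated, 24 h and 48 h). Hoxaas2 had 23.7, 22.6 and 79.1 TPM in clone 31 and 16.8, 14.3 and 36.8 TPM in clone 30. Both RNAs were highest at 48 h in each clone.

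With the clone as a block, Hoxaas2 was higher at 48 h than untreated by 1.45 ± 0.20 on the log2 scale (SE, edgeR adjusted p = 0.0238), the 1 call of 7 noncoding genes tested. At 48 h against 24 h, 5 of 7 were higher: Hoxaas2 by 1.61 ± 0.20, Hoxaas3 by 1.11 ± 0.22, Emx2os by 0.83 ± 0.22, Hotairm1 by 0.79 ± 0.13 and Hoxb3os by 0.52 ± 0.13 (adjusted p from 0.0162 to 0.0432). On treatment alone none of the 7 was called. Between the clones, Hoxaas2 was higher in clone 31 by 0.82 ± 0.16 (adjusted p = 0.0245), while the HoxA genes Hoxa5, Hoxa6 and Hoxa7 were lower in clone 31. Hoxd3os1 had 0 counts in all 3 clone 31 libraries, against 15, 14 and 10 counts in clone 30. At 24 h against untreated 0 of the 7 were called with the block (adjusted p from 0.823 to 0.920).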
